A study of Arabidopsis thaliana with 6 samples.

Results

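Expansins and xyloglucan endotransglucosylase/hydrolases (XTHs) were followed through an array experiment on Arabidopsis roots exposed to cadmium. The members were all genes with an expansin or XTH symbol that the array annotation names alone for a probe set, which gave 28 of 13356 genes so named: 18 expansins and 10 XTHs. The expansins were 10 alpha-expansins (EXPA), 4 beta-expansins (EXPB), 3 expansin-like A genes (EXLA) and 1 expansin-like B gene (EXLB). Each had 1 probe set. A further 2 probe sets name 2 expansins each and were left out.

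Primary walls of growing plant cells hold cellulose microfibrils in a matrix that includes xyloglucan. Expansins are secreted proteins that loosen this network at acid pH without cutting its polymers, and alpha- and beta-expansins are the classes with known loosening activity, whereas no such activity is established for the expansin-like genes. XTHs cut xyloglucan chains and rejoin the new end to another chain, or in some members hydrolyse it. In roots both families are associated with cell elongation, the growth of root hairs and the remodelling of older tissue.

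The control group was roots of 4-week-old Col-0 plants in hydroponic culture without cadmium, and the cadmium group was roots of the same accession, age and culture given 200 µM cadmium for 6 h. Each group had 3 ATH1 arrays, numbered 1 to 3 and called biological replicates by their labels. The labels name no mutant or transgene in either group. They do not say how many plants a sample pooled, and the treatment field of the control arrays also lists cadmium, so that groups rest on titles and source names.

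Values are MAS5 signals, a linear intensity per probe set, rescaled here to a common trimmed mean of 500 because replicate 2 had been deposited at 216 (control) and 227 (cadmium). Replicate 2 also stood apart in the log2 ratio of 3' to 5' signal of the GAPDH control transcript, which was 2.02 and 1.67 on its control and cadmium arrays and -0.60 to -0.19 on the other arrays. The gap was smaller for actin (3.46 and 3.73, beside 2.41 to 2.99) and ubiquitin (1.05 and 1.26, beside 0.65 to 1.03). The fits therefore took replicates 1 and 3 as 1 batch of 2 arrays against 2, and replicate 2, with 1 array a group, was set beside them. The term that compared it with them assumes that its arrays vary like those of replicates 1 and 3, which could not be checked. The files cannot show whether the labels of a replicate were exchanged, so that every direction is by label. Over all 6 arrays 0 of 15922 tested probe sets passed (0.0%, limma, 108 at an unadjusted p under 0.05), and within replicates 1 and 3 the share was 4.38%. Of 11 root markers PYK10, a beta-glucosidase of root ER bodies, had a named probe set, with signals of 7588 to 12845. Of 10 shoot markers RCA, rubisco activase, and PRK, phosphoribulokinase, had one, with signals of 604 to 1669 and 61.9 to 440, and their part in the results was not tested. RNA came from whole roots, so fewer cells of a type and less RNA per cell cannot be told apart.

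Of the 28 members, 22 had a mean signal above the filter of 95.2 and were tested, 13 expansins and 9 XTHs. Within replicates 1 and 3, EXLA2 and EXGT-A3 passed the threshold (adjusted p under 0.05 over all tested probe sets), both lower on the cadmium arrays. That is 2 of 22 beside 3.19% of all probe sets lower by the same rule and 4.38% in either direction. An unadjusted p under 0.05 was found for 10 of the 22 in this limma fit, where 24.2% of all probe sets had one. These were 3 of 13 expansins and 7 of 9 XTHs. In these replicates 7 of the 22 had both cadmium arrays above both control arrays (40.6% of all probe sets) and 5 had both below (17.0%). In replicate 2 the difference ran against that of replicates 1 and 3 in 13 of 22 members, where 61.1% of all probe sets did so. The shares with groups apart and with replicate 2 opposed were near those of all probe sets. The share at an unadjusted p under 0.05 was near it in the expansins and higher in the XTHs.

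The alpha- and beta-expansins, the wall-loosening classes, had fitted differences above 0 in 9 of 9 tested members within replicates 1 and 3, with a median of 0.77 on the log2 scale, and 0 of 9 passed the threshold (2 at an unadjusted p under 0.05, as were 24.2% of all probe sets). Differences above 0 were found in 67.2% of all probe sets, whose median was 0.22, and 8 of the 9 lay above that median. The sign of EXPB1 turned with quantile normalization or median centring. In replicate 2 the difference was below 0 in 8 of these 9, with a median of -0.62. The median over all probe sets was also below 0 there, at -0.18. The 4 expansin-like genes had fitted differences below 0 in 4 of 4, and 1 of 4 passed, beside 3.19% of all probe sets lower. These shares describe the members and were not tested as sets.

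**Figure D1:**
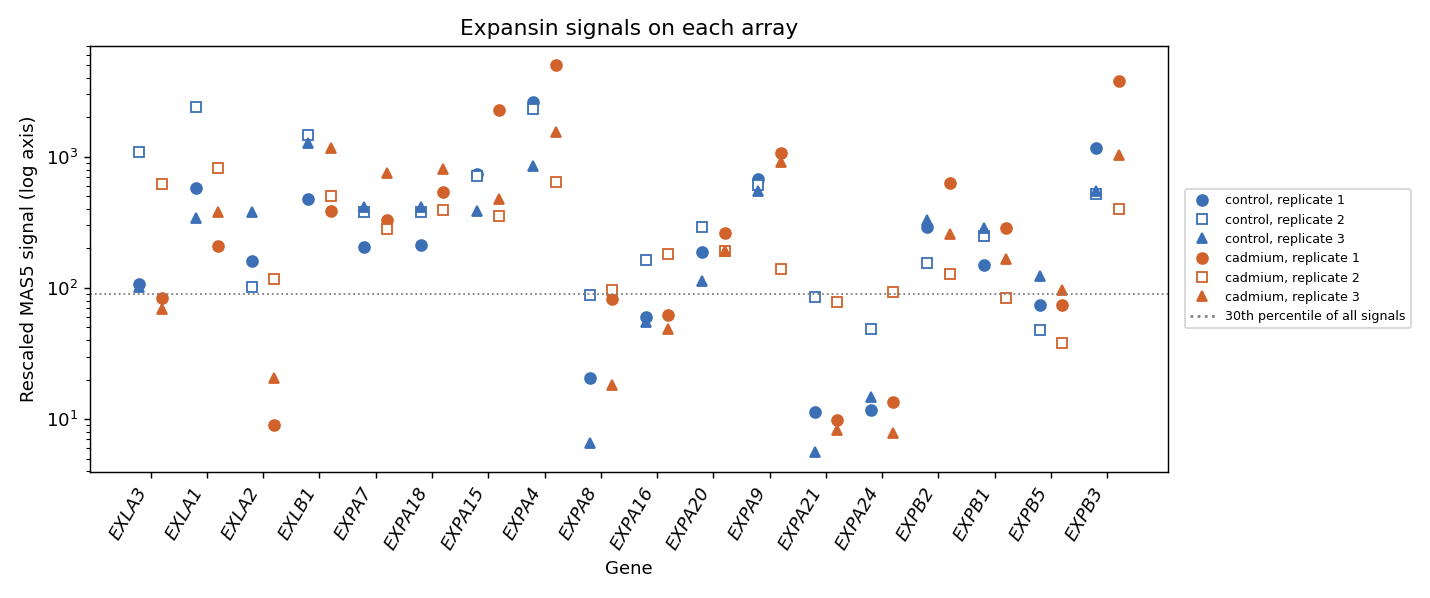
Rescaled MAS5 signal (log axis) of the 18 expansins on each of the 6 arrays. Blue points are control and orange points cadmium arrays, and open squares mark replicate 2. EXLA1 and EXLA3 were highest on the control array of replicate 2, whereas EXPA4, EXPA15 and EXPB3 were highest on the cadmium array of replicate 1.

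EXPA18 and EXPA7, alpha-expansins expressed in root hair cells, were brighter on the cadmium than on the control array of replicate 1 and of replicate 3. EXPA18 gave 213, 377 and 411 on control arrays 1, 2 and 3 and 539, 394 and 805 on cadmium arrays 1, 2 and 3. The cadmium array was above the control array of its number in 3 of 3 replicates, by 1.34, 0.06 and 0.97 on the log2 scale, although cadmium array 2 lay below control array 3. The fitted difference within replicates 1 and 3 was 1.15 ± 0.40 SE (adjusted p = 0.169). EXPA7 gave 204, 379 and 415 in the control and 329, 280 and 752 in the cadmium group. Its groups overlapped, and the difference was 0.77 ± 0.53 SE (adjusted p = 0.414). None of the 7 other root hair genes chosen for this comparison had a named probe set, so root hair transcripts beyond the members are not analysed here.

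The term that compared replicate 2 with replicates 1 and 3 passed the threshold in 2 of 22 tested members, beside 9.55% of all probe sets. These were EXGT-A3 and EXPA9, an alpha-expansin. The signals of EXPA9 were 676, 612 and 549 on control arrays 1, 2 and 3. They were 1074, 138 and 905 on the cadmium arrays. Cadmium arrays 1 and 3 were above every control array and cadmium array 2 was below every one. The difference of replicate 2 minus that of replicates 1 and 3 was -2.84 ± 0.40 SE on the log2 scale (limma interaction term over 6 arrays with the spread of replicates 1 and 3, adjusted p = 0.0270), a threshold that 9.55% of all probe sets passed, with a median over all probe sets of -0.43. EXLA2 (4.39 ± 1.23 SE), XTH26 (-3.93 ± 1.69 SE) and XTH18 (3.44 ± 1.19 SE) had wider values of this term and did not pass. Within replicates 1 and 3 alone the difference of EXPA9 was 0.70 ± 0.23 SE (adjusted p = 0.154). The interaction did not pass without cadmium array 1 (adjusted p = 0.0895) or cadmium array 3 (adjusted p = 0.0797), or with low signals of other probe sets set to the floor (adjusted p = 0.0565), a level of 90.7.

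EXPA4, EXPA15 and EXPB3 shared a high cadmium array 1. EXPA4, an alpha-expansin, gave 2608, 2316 and 858 in the control and 4989, 641 and 1535 in the cadmium group. EXPA15, of the same class, gave 744, 718 and 387 in the control and 2288, 354 and 476 in the cadmium group. EXPB3, a beta-expansin, gave 1177, 523 and 549 in the control and 3811, 399 and 1037 in the cadmium group. In each of the 3 genes cadmium array 1 held the highest and cadmium array 2 the lowest signal, but the groups overlapped even within replicates 1 and 3, because control array 1 was above cadmium array 3. Cadmium array 1 was the brightest array for 6 of 13 tested expansins, also EXPA9, EXPB1 and EXPB2, and for 25.3% of all probe sets. The fitted differences were 0.89 ± 0.74 SE for EXPA4, 0.96 ± 0.78 for EXPA15 and 1.31 ± 0.70 for EXPB3 (adjusted p = 0.499, 0.488 and 0.311). Without cadmium array 1, EXPA4 was at 0.038, EXPA15 at -0.17 and EXPB3 at 0.37, and without control array 3 they were at 0.086, 0.49 and 0.76.

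The remaining tested alpha- and beta-expansins were EXPA20, EXPB1 and EXPB2. EXPA20 had signals of 114 to 294, with cadmium arrays 1 and 3 (264 and 192) above control arrays 1 and 3 (187 and 114), and a difference of 0.63 ± 0.37 SE (adjusted p = 0.347). EXPB2 ranged from 128 to 630 and EXPB1 from 83.2 to 289, with differences of 0.37 ± 0.46 and 0.08 ± 0.45 SE (adjusted p = 0.653 and 0.933). In both beta-expansins replicates 1 and 3 differed in opposite directions, and leaving out cadmium array 1 put EXPB2 at -0.28 and EXPB1 at -0.32.

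The expansin-like genes behaved less alike than their common sign shows. EXLA2 gave 161, 101 and 382 on control arrays 1, 2 and 3 and 9.08, 117 and 20.7 on the cadmium arrays. The 2 low cadmium arrays of replicates 1 and 3 were under 90.7, the 30th percentile of all signals and the level used as a floor, whereas replicate 2 had nearly equal signals. The fitted difference was -4.18 ± 0.69 SE (adjusted p = 0.0417). With low signals set to the floor the gene was at least 2.74-fold lower and no longer passed (adjusted p = 0.192). Nor did it pass without the intensity trend (adjusted p = 0.0527), or without cadmium array 1 (adjusted p = 0.114), cadmium array 3 (0.0724) or control array 3 (0.0954).

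EXLA1 and EXLA3 are neighbours on the chromosome in the TAIR10.1 RefSeq table, with 0 coding genes between them. EXLA1 gave 583, 2392 and 340 in the control and 207, 827 and 379 in the cadmium group. EXLA3 gave 108, 1087 and 101 in the control and 83.9, 619 and 69.5 in the cadmium group. Both genes were brightest on control array 2 and next on cadmium array 2, above all 4 arrays of replicates 1 and 3. Their replicate 2 differences of -1.53 and -0.81 had the sign of the fitted differences, which were -0.67 ± 0.42 SE for EXLA1 and -0.45 ± 0.36 SE for EXLA3 (adjusted p = 0.379 and 0.476). EXLB1 gave 473, 1455 and 1272 in the control and 385, 499 and 1160 in the cadmium group, with a lower cadmium array in 3 of 3 replicates. Its difference within replicates 1 and 3 was -0.22 ± 0.69 SE (adjusted p = 0.869), and it was 0.50 without control array 3 and 0.58 without cadmium array 1. EXLA3, EXLB1 and EXPA18 were the tested expansins with 1 sign in 3 replicates, 3 of 13 beside 15.8% of all probe sets.

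The 5 expansins under the filter had low signals on most arrays. EXPA21 and EXPA24 did not exceed 93.3 on any array. EXPA8 gave 20.6, 89.0 and 6.54 in the control and 82.8, 96.2 and 18.2 in the cadmium group, with 5 of 6 arrays under 90.7. EXPB5 gave 74.3, 47.8 and 124 in the control and 74.3, 37.7 and 96.7 in the cadmium group. EXPA16, with a mean of 94.8, fell just under the filter and was brightest in replicate 2 (162 and 181, beside 49.1 to 62.2 elsewhere). No fold is given for these genes.

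Of the 9 tested XTHs, 3 were below (17.0% of all probe sets) and 4 above (40.6%) the control arrays on both cadmium arrays of replicates 1 and 3, and there were 2 whose groups overlapped there. The threshold was passed by 1, EXGT-A3 (3.19% of all probe sets lower), and 7 had an unadjusted p under 0.05, where 24.2% of all probe sets did. The lower group was EXGT-A3, XTH18 and XTH19. The higher group was XTH26, XTH21, XTH33 and XTH32.

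**Figure D2:**
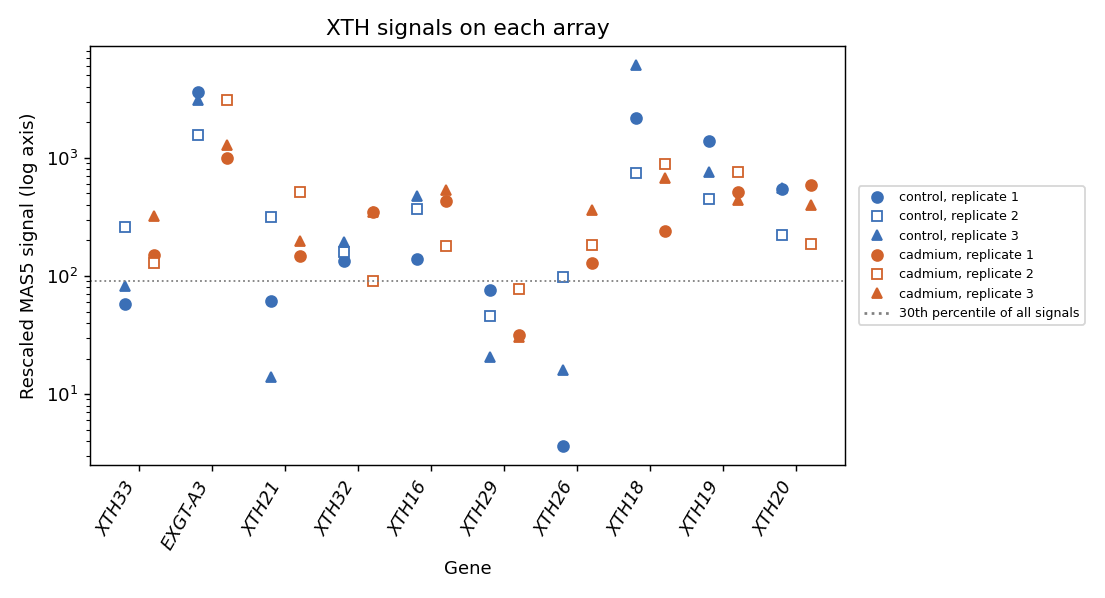
Rescaled MAS5 signal (log axis) of the 10 XTH genes on each of the 6 arrays, with colours for groups and open squares for replicate 2. EXGT-A3 and XTH18 had high control arrays in replicates 1 and 3, and XTH26 had its 3 cadmium arrays above its 3 control arrays.

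EXGT-A3, also listed as XTH27, was the XTH past the threshold. Its signals were 3595, 1551 and 3117 on control arrays 1, 2 and 3. On the cadmium arrays they were 993, 3091 and 1276. Control arrays 1 and 3 were each more than 2-fold above cadmium arrays 1 and 3, and in replicate 2 the order was turned. The difference within replicates 1 and 3 was -1.57 ± 0.22 SE (adjusted p = 0.0316). The difference of replicate 2 minus that of replicates 1 and 3 was 2.57 ± 0.38 SE (adjusted p = 0.0291), again with the spread of replicates 1 and 3 alone. Neither passed without cadmium array 1 (adjusted p = 0.164 and 0.0914) or cadmium array 3 (0.102 and 0.0746). With both differences unchanged, neither passed without the intensity trend (adjusted p = 0.0613 and 0.0506) or with low signals of other probe sets set to the floor of 90.7 (0.0737 and 0.0579). The first passed with the floor once probe sets at the floor on every array were left out, a setting added after seeing the data (adjusted p = 0.0344).

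XTH18 and XTH19, both XTHs of roots, lie next to each other with 0 coding genes between them. XTH18 gave 2163, 745 and 6126 in the control and 239, 893 and 679 in the cadmium group. Matched by number, the difference of cadmium from control was -3.18 (replicate 1) and -3.17 (replicate 3) on the log2 scale, and replicate 2 was at 0.26. Within replicates 1 and 3 the control arrays differed (2163 and 6126), as did the cadmium arrays (239 and 679). The standard error of the group comparison, which takes in the spread of the control arrays, was 0.68 (difference -3.18, adjusted p = 0.0725). XTH19 gave 1398, 452 and 761 in the control and 510, 766 and 441 in the cadmium group, with a difference of -1.12 ± 0.34 SE (adjusted p = 0.136). Both genes were lower on cadmium arrays 1 and 3 and higher on cadmium array 2. XTH20, another root XTH, did not share this, with signals of 187 to 592 and a difference of -0.19 ± 0.27 SE (adjusted p = 0.687). Leaving out 1 array moved the call of both neighbours. XTH18 passed without control array 1 (adjusted p = 0.0228) and had adjusted p = 0.222 without cadmium array 1. XTH19 passed without control array 3 (-1.56, adjusted p = 0.0304) and was at -0.68 without control array 1 (adjusted p = 0.233). Whether the probes of these genes cross-hybridise was not tested.

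XTH26, an XTH of root hairs, was the only member whose 3 cadmium arrays all lay above its 3 control arrays, 1 of 22 beside 2.44% of all probe sets. It gave 3.63, 98.9 and 16.1 in the control and 130, 184 and 362 in the cadmium group. Control arrays 1 and 3 were under the floor of 90.7 and the other 4 arrays above it. The differences were 5.16, 0.89 and 4.49 in replicates 1, 2 and 3, and with low signals set to the floor the gene was at least 2.39-fold higher within replicates 1 and 3. The fit gave 4.83 ± 0.97 SE within those replicates (adjusted p = 0.0643) and 3.51 ± 1.23 SE over all 6 arrays (adjusted p = 1). The first passed without control array 1 (adjusted p = 0.0483) or control array 3 (adjusted p = 0.0170), and it had adjusted p = 0.181 without cadmium array 1 and 0.393 without cadmium array 3.

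XTH21, an XTH of the primary root, was higher on the cadmium array in 3 of 3 replicates. It gave 61.0, 316 and 13.9 in the control and 148, 519 and 199 in the cadmium group. Replicate 2 had the highest signal in each group, so that the groups overlapped over 6 arrays. Within replicates 1 and 3 the difference was 2.56 ± 0.78 SE (adjusted p = 0.137), at least 1.89-fold with the floor, and it passed without control array 1 (3.63, adjusted p = 0.0315) but was 1.49 without control array 3 (adjusted p = 0.124). XTH21 and XTH26 were the tested XTHs with 1 sign in 3 replicates, 2 of 9 beside 15.8% of all probe sets.

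XTH33 and XTH32 differed from that pair in replicate 2. XTH33, which is predicted to be anchored in the membrane, gave 58.1, 260 and 81.8 in the control and 151, 129 and 319 in the cadmium group. XTH32 gave 135, 161 and 195 in the control and 349, 91.0 and 349 in the cadmium group. Both had cadmium arrays 1 and 3 above control arrays 1 and 3 and a lower cadmium array in replicate 2. Their differences within replicates 1 and 3 were 1.67 ± 0.47 and 1.11 ± 0.29 SE (adjusted p = 0.122 and 0.105). XTH16 gave 139, 366 and 472 in the control and 430, 179 and 535 in the cadmium group, with a difference of 0.91 ± 0.59 SE (adjusted p = 0.397). Its control array 3 lay above its cadmium array 1, and the control arrays decided its value. It was 1.79 without control array 3 (adjusted p = 0.0348) and 0.023 without control array 1 (adjusted p = 0.977). XTH29 was under the filter, with 20.8 to 77.2 on all arrays.

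**Figure D3:**
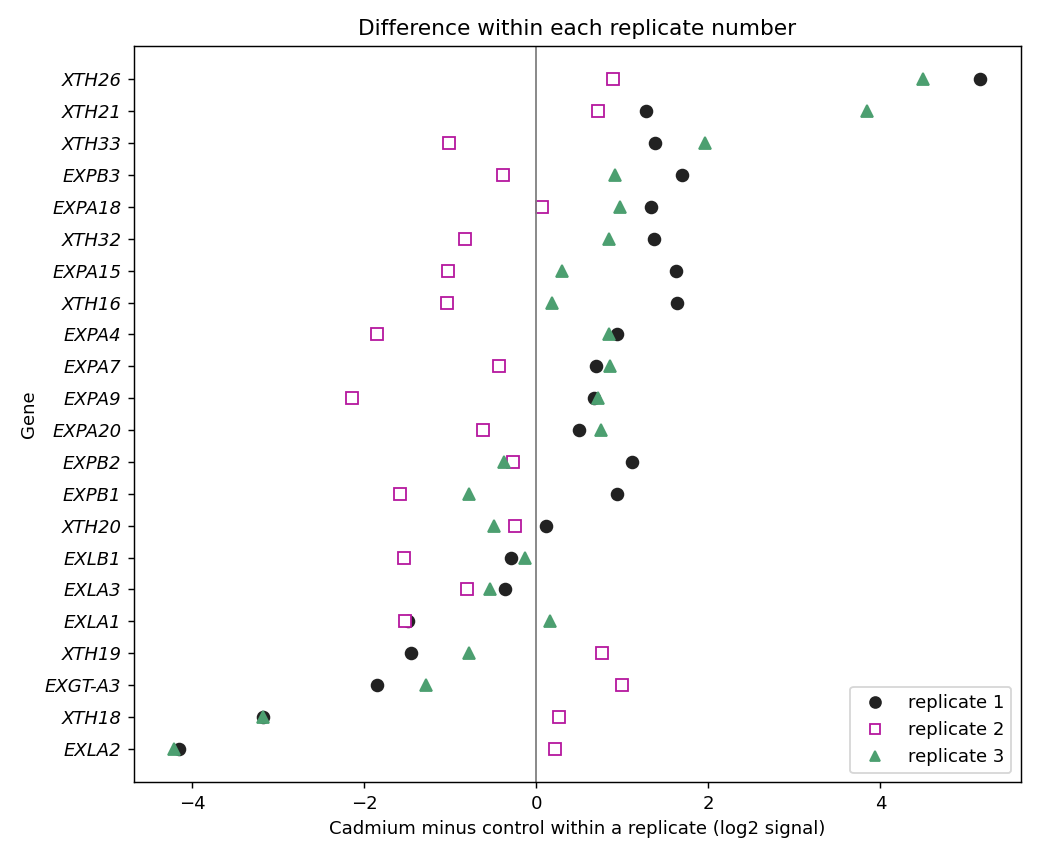
Difference of cadmium minus control (log2 signal) within each replicate number for the 22 tested members, in order of the fitted difference of replicates 1 and 3. Arrays are matched by number, which was not taken as a pairing. Replicates 1 (circles) and 3 (triangles) lie close together for XTH18, EXPA4 and EXPA9, and for EXLA2 as long as signals under 90.7 are not set to that value, and replicate 2 (open squares) lies across 0 from them in 13 members.

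With arrays matched by number, the agreement of replicates 1 and 3 varied among members. The numbers were not taken as pairs, and another matching would give other differences. XTH18 differed by -3.18 and -3.17 in replicates 1 and 3, EXPA9 by 0.67 and 0.72, and EXPA4 by 0.94 and 0.84. EXLA2 differed by -4.15 and -4.21, but its cadmium signals lay under the floor, and with the floor it differed by -0.83 and -2.08. XTH21 differed by 1.28 and 3.84, and by 0.71 and 1.13 with its low control signals set to the floor. EXLA1, EXPB1, EXPB2 and XTH20 changed sign between these replicates. For replicates 1, 2 and 3 the medians over the 13 tested expansins were 0.69, -0.81 and 0.30. Over the 9 XTHs they were 1.28, 0.26 and 0.18, and over all probe sets 0.29, -0.18 and 0.16. The median of the XTHs hides genes far to either side of it, from -3.18 to 4.83 in the fit.

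**Figure D4:**
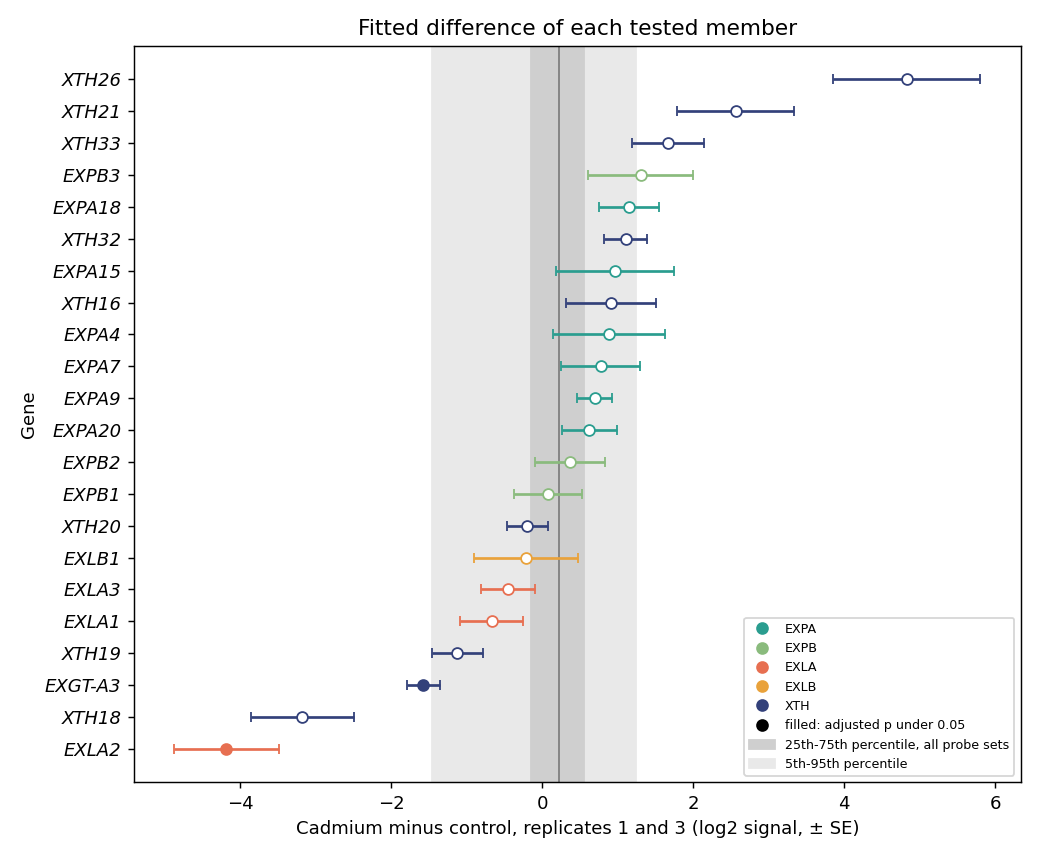
Fitted difference of cadmium minus control within replicates 1 and 3 (log2 signal, bars ± SE, 2 arrays against 2) for the 22 tested members, coloured by class. Grey bands hold the middle part of all 15922 probe sets, with the 25th to 75th percentile from -0.14 to 0.56 and the 5th to 95th from -1.46 to 1.24, and filled points (EXLA2 and EXGT-A3) passed the threshold.

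Outside the 5th to 95th percentile of all probe sets lay EXLA2, XTH18 and EXGT-A3 on the low side and XTH26, XTH21, XTH33 and EXPB3 on the high side. With low signals set to the floor that range was -1.30 to 1.09, and XTH21 at 0.92 lay inside it, while EXLA2 was at -1.45, XTH26 at 1.26 and XTH33 at 1.28, and EXPA18 at 1.15 and XTH32 at 1.11 now lay outside. Without the floor, the fitted differences of all 6 tested alpha-expansins, 0.63 to 1.15, were under the 95th percentile and above the 75th percentile of 0.56. Set against the same 0.56, 5 of them fell below it when 1 array was left out. This put EXPA4 as low as 0.038, EXPA7 at 0.18, EXPA15 at -0.17, EXPA20 at 0.27 and EXPA9 at 0.55, whereas EXPA18 stayed at or above 0.68.

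Other genes of xyloglucan and cellulose synthesis were set beside the families. Of 14 listed genes of xyloglucan synthesis 5 had a named probe set, all of the CSLC family of glucan synthases. The threshold was passed by 1 of the 5, lower, beside 3.19% of all probe sets lower. CSLC4, which makes the xyloglucan backbone, gave 5442, 1930 and 3629 in the control and 1164, 3941 and 1033 in the cadmium group. Cadmium arrays 1 and 3 were below, and cadmium array 2 above, the control arrays of their numbers, the order seen in EXGT-A3. Its difference within replicates 1 and 3 was -2.02 ± 0.26 SE (adjusted p = 0.0258), and it did not pass without cadmium array 1 (0.106) or cadmium array 3 (0.114). The other CSLC genes (CSLC5, CSLC6, CSLC8 and CSLC12) had differences of 0.43 to 1.15, and the median of the 5 was 0.47. All probe sets had a median of 0.22, with the 25th to 75th percentile from -0.14 to 0.56. Of 12 listed genes of cellulose synthesis, COB, a wall-associated protein needed for oriented cellulose deposition, was tested, with a difference of 0.34 (adjusted p = 0.332). Of the 4 proton pumps that acidify the wall and the 3 enzymes that trim xyloglucan, 0 had a named probe set and they are not analysed here.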

How the data were processed

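The deposited values are linear intensities, made with MAS5 by the authors per the submitters' processing notes. Its version and scaling target are not given in the sources used here. Every array was rescaled to a 2% trimmed mean of 500, and the 7 zeros of control array 2 took the lowest value above 0 found there. Removed were the 64 control probe sets and those with a mean signal under the 30th percentile (95.2), leaving 15922 of 22746. Differences are of log2 signal, cadmium minus control. Models were fitted in R 4.3.3 with limma 3.58.1 (eBayes with an intensity trend, two-sided, Benjamini-Hochberg over all tested probe sets, threshold 0.05). They were run within replicates 1 and 3, over all 6 arrays, and with a term for the difference of replicate 2 from the rest, whose spread comes from replicates 1 and 3. Scripts were run on simulated data with equal, independent noise for every probe set, which does not show how the fits perform on these arrays.

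Names came from the array annotation (13513 probe sets with 1 gene, 503 with several, 8730 with none). Of 61 genes in 7 lists, 9 had a named probe set. Members, lists, batch and tests were chosen with earlier results of these data known. All members are named. Signals on every array are given for called members, the brightest and widest of each family and those with 1 sign in 3 replicates, and for some others. P-values measure the spread between arrays called biological replicates, and their number limits the precision.

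The replicate numbers were not taken as pairs, and differences within a replicate match arrays by number alone. Deviations from the group means of same-numbered arrays correlated with r = 0.14, 0.04 and 0.33 across probe sets. Alternatives were other scalings, no filter, a floor of 90.7, no trend, a replicate block, array weights and leaving out each array. A replicate 2 batch block and a floor fit without flat probe sets were added after seeing the data.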

Additional observations from a re-analysis of the deposited data

How the results depend on the processing

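Within replicates 1 and 3, EXLA2, EXGT-A3 and CSLC4 were called with the reported settings and also with signals as deposited, quantile normalization, median centring or no filter. With the floor the count of probe sets past the threshold was 0 instead of 697, and 0 expansins, 0 XTHs, 0 listed genes and 0 members in the difference of differences passed. In that fit 210 probe sets lay at the floor on every array, and without them 634 probe sets, 0 expansins and EXGT-A3 passed (again 0 in the difference of differences). Without the intensity trend 328 probe sets, 0 expansins, 0 XTHs and 0 listed genes passed, and 1 member in the difference of differences. With the replicate block, 1 residual degree of freedom, the counts were 3388 probe sets, 6 expansins, 7 XTHs, 2 listed genes and 13 members in the difference of differences. The labels do not say whether the numbers pair the samples. Every array but cadmium array 2 correlated best with its own number. Cadmium array 2 had r = 0.12 with control array 1 and 0.04 with control array 2. Over all 6 arrays array weights gave 435 calls (0.33 and 0.19 for replicate 2, 1.25 to 3.52 for the rest), and each other setting 0, the replicate 2 batch block among them. Of the 3 members with an unadjusted p under 0.05 over 6 arrays, XTH26 and EXLA2 passed with these weights (limma, adjusted p = 0.0462 and 0.0443). XTH18 did not (adjusted p = 0.0540). Leaving out 1 array, where a lone array is assumed to vary like the rest, gave 96 (cadmium array 1), 128 (cadmium array 3), 667 (control array 1) and 1216 (control array 3) probe sets within replicates 1 and 3. It gave 0 to 1 expansins, 0 to 1 listed genes, and 0 to 4 XTHs and members in the difference of differences, in both cases 0 without either cadmium array and 4 without either control array. The cause of these shifts was not tested. Signs turned for EXPB1 (-0.15 with quantile normalization and -0.18 with median centring), PYK10 (-0.17) and RCA (-0.10, both with median centring). Leaving out 1 array moved XTH20 between -0.48 and 0.092, EXLB1 between -1.01 and 0.58, EXPA15 between -0.17 and 2.09, EXPB2 between -0.28 and 1.02, EXPB1 between -0.39 and 0.55, and PYK10 between -0.037 and 0.20. Quantile normalization and median centring moved the median of all probe sets from 0.22 to 0.11 and -0.03, and median centring the split of higher and lower calls from 189 and 508 to 106 and 671. Low signals limit EXLA2, XTH26, XTH21, XTH33 and EXLA3, which had arrays of replicates 1 and 3 under 90.7. EXPB1 had 1 array under that level, cadmium array 2 (83.2). No other probe set of a member could be tried.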
